A study of Homo sapiens with 6 samples.

Results

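The 40 genes described here were listed by function as ribosome biogenesis and nucleolar genes, with earlier results of these data known. All 40 were found among the 56303 rows of a gene count table from SW480 cells, a human colon adenocarcinoma line. They comprise 5 genes of RNA polymerase I transcription, 3 of the box C/D and 4 of the box H/ACA small nucleolar ribonucleoprotein particles (snoRNPs), 13 of small subunit assembly, 11 of large subunit assembly and 4 nucleolar chaperones and scaffolds. The study compared cells carrying a lentiviral short hairpin against RBM39 (shRBM39) with cells carrying a nonsilencing hairpin (shCtrl), to learn what the RNA-binding splicing factor RBM39 does in colon cancer cells. Both groups were otherwise wild type and were infected and then selected with puromycin as stable clonal lines, so the hairpin and any difference between the selected lines cannot be told apart. Messenger RNA was sequenced in 3 libraries per group, set up as replicate experiments. Whether these came from separately derived lines is not given in the sources used here, so p-values measure the spread between these libraries, which may be partly technical.

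Ribosomes are built mainly in the nucleolus. RNA polymerase I transcribes the long ribosomal RNA precursor, snoRNPs guide methylation and pseudouridylation of that precursor, and large sets of assembly factors fold, cut and package it with ribosomal proteins into the small and large subunits. Rapidly growing cancer cells use this pathway heavily, and the transcription factor MYC is known to raise many of its genes through E-box motifs.

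Total counts ran from 18042924 to 20428901 per library. RBM39 itself stood at 441, 448 and 435 CPM (read counts scaled to a common library size by the trimmed mean of M values, TMM) in the shCtrl libraries and at 266, 276 and 292 CPM in the shRBM39 libraries. It was therefore lower in every shRBM39 library, with a log2 fold change (shRBM39 minus shCtrl) of -0.67 (SE 0.04, edgeR adjusted p = 1.24e-16). Of the epithelial markers, EPCAM (562 to 645 CPM) and KRT8 (6692 to 9521 CPM) were high in all 6 libraries, the intestinal marker CDX1 had at most 2 counts, and CDX2 stood at 21.3 to 22.4 CPM in shCtrl and 4.65 to 5.56 CPM in shRBM39. Of the markers of other cell types, the leukocyte genes PTPRC and CD3E had 0 and at most 1 count, while COL1A1 (5.46 to 5.66 CPM in shCtrl, 8.31 to 10.6 in shRBM39) and PECAM1 (2.83 to 3.99 and 5.32 to 6.23 CPM) were present in every library at low levels, higher in shRBM39. Their part in the results was not tested. Mitochondrially encoded genes took 6.90% to 7.28% of the counts in shCtrl and 7.33% to 8.22% in shRBM39, and the part of this shift in the results was not tested.

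Ribosome biogenesis transcripts were more abundant in the RBM39 knockdown cells. Of the 40 genes, 35 rose, 1 fell (DDX21) and 4 did not pass the test (POLR1B, UTP4, NOP14 and NPM3) (quasi-likelihood F test of edgeR over 18243 genes, adjusted p below 0.05). The background was broad, since 59.1% of all tested genes were called, 29.2% as higher and 29.9% as lower. Among the 9775 tested genes averaging 10 CPM or more, a level every one of the 40 reached, 72.9% were called, 40.2% as higher and 32.7% as lower, against 87.5% of the 40 called higher. The changes were moderate in size. Their median log2 fold change was 0.30 and they ran from -0.14 to 0.78, where the median over all tested genes was -0.01 and that over the genes averaging 10 CPM or more was 0.04. A log2 fold change of at least 0.5 was reached by 10 of the 40, where 11.4% of all tested genes had a call and that size. In 36 of the 40 the shCtrl and shRBM39 libraries were fully separated, as in 63.3% of all tested genes (31.0% with shRBM39 higher) and 75.4% of those averaging 10 CPM or more (41.6% with shRBM39 higher). In bulk samples, a change in RNA per cell and a change in the share of cells that express a gene cannot be told apart.

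These directions depend in part on scaling. The TMM factors were 1.03 to 1.05 in shCtrl and 0.955 to 0.960 in shRBM39, and scaling by library totals alone moved the median of all tested genes to -0.14. On that scale 29 of the 40 rose and 3 fell (DDX21, UTP4 and NPM3), so 90.6% of those called were higher in place of 97.2%. Among all called genes, 33.9% were higher in place of 49.4%. The calls for DKC1, WDR43, BOP1, WDR12 and NPM1 were lost on that scale and DDX10 moved to a change near 0.

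**Figure D1:**
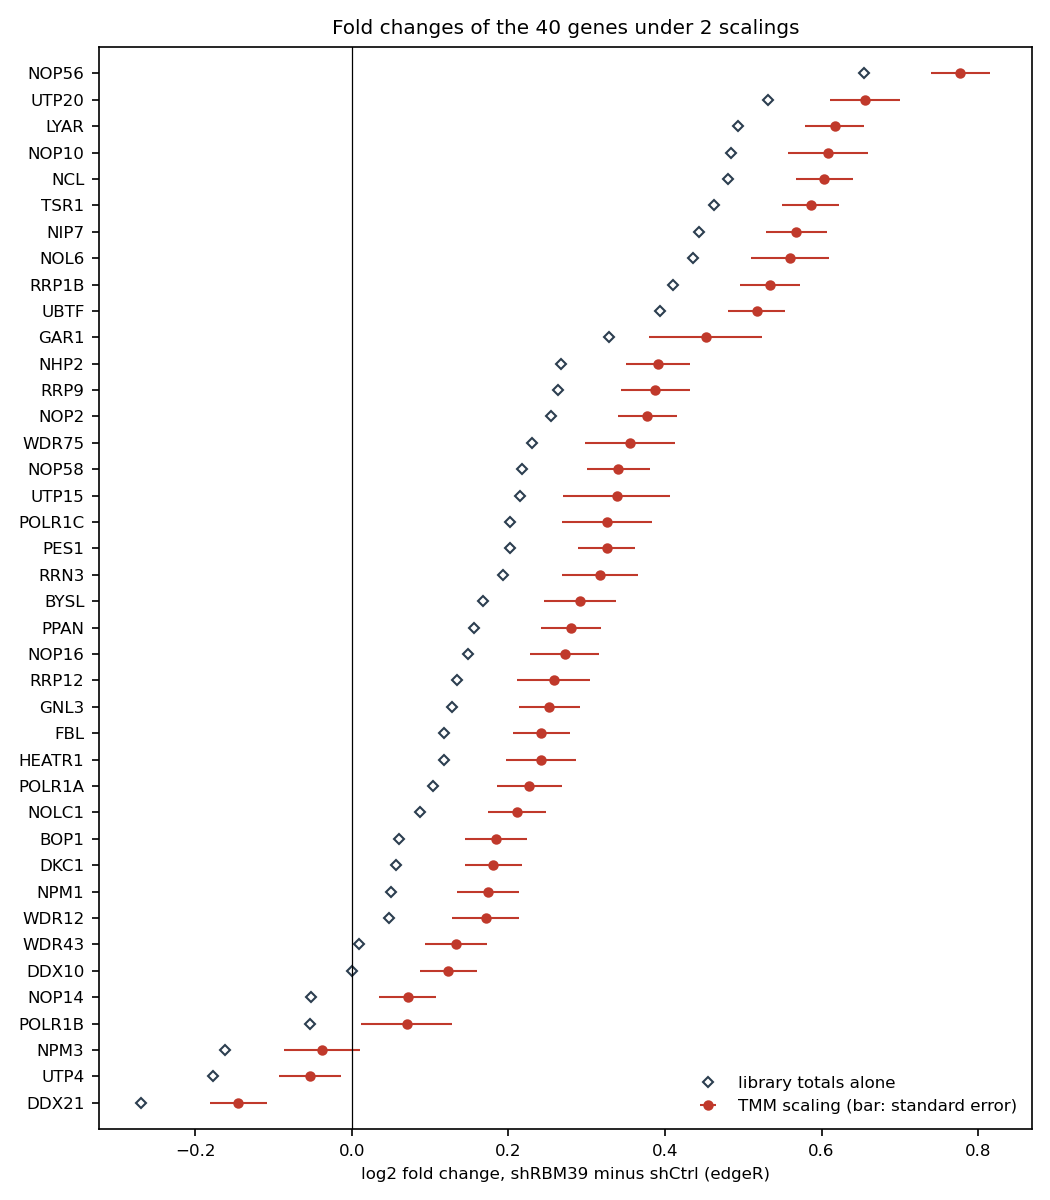
Log2 fold change (shRBM39 minus shCtrl) of each of the 40 genes with TMM scaling (red points, bars for the standard error), in order of size, and open diamonds for the same change scaled by library totals alone, which lie to the left throughout. NOP56 lies at the top of the range at 0.78 and DDX21 at the bottom at -0.14.

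A shift in the same direction showed in each library. The 40 genes together held 1.76%, 1.72% and 1.71% of all counts in shCtrl and 2.12%, 2.10% and 2.16% in shRBM39. This share rests on library totals, with no TMM factor. NCL alone supplied much of this sum, with 0.803%, 0.766% and 0.765% of all counts in shCtrl and 1.08%, 1.07% and 1.10% in shRBM39. Without NCL, the remaining 39 genes held 0.953%, 0.955% and 0.944% in shCtrl and 1.04%, 1.03% and 1.06% in shRBM39, so both shares were higher in every shRBM39 library. With TMM scaling, the median log2 deviation of the 40 from the shCtrl mean of each gene was 0.30, 0.28 and 0.31 in the shRBM39 libraries. It lay between -0.02 and 0.02 in the shCtrl libraries. Under library totals the median log2 fold change of the 40 was smaller, at 0.18.

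**Figure D2:**
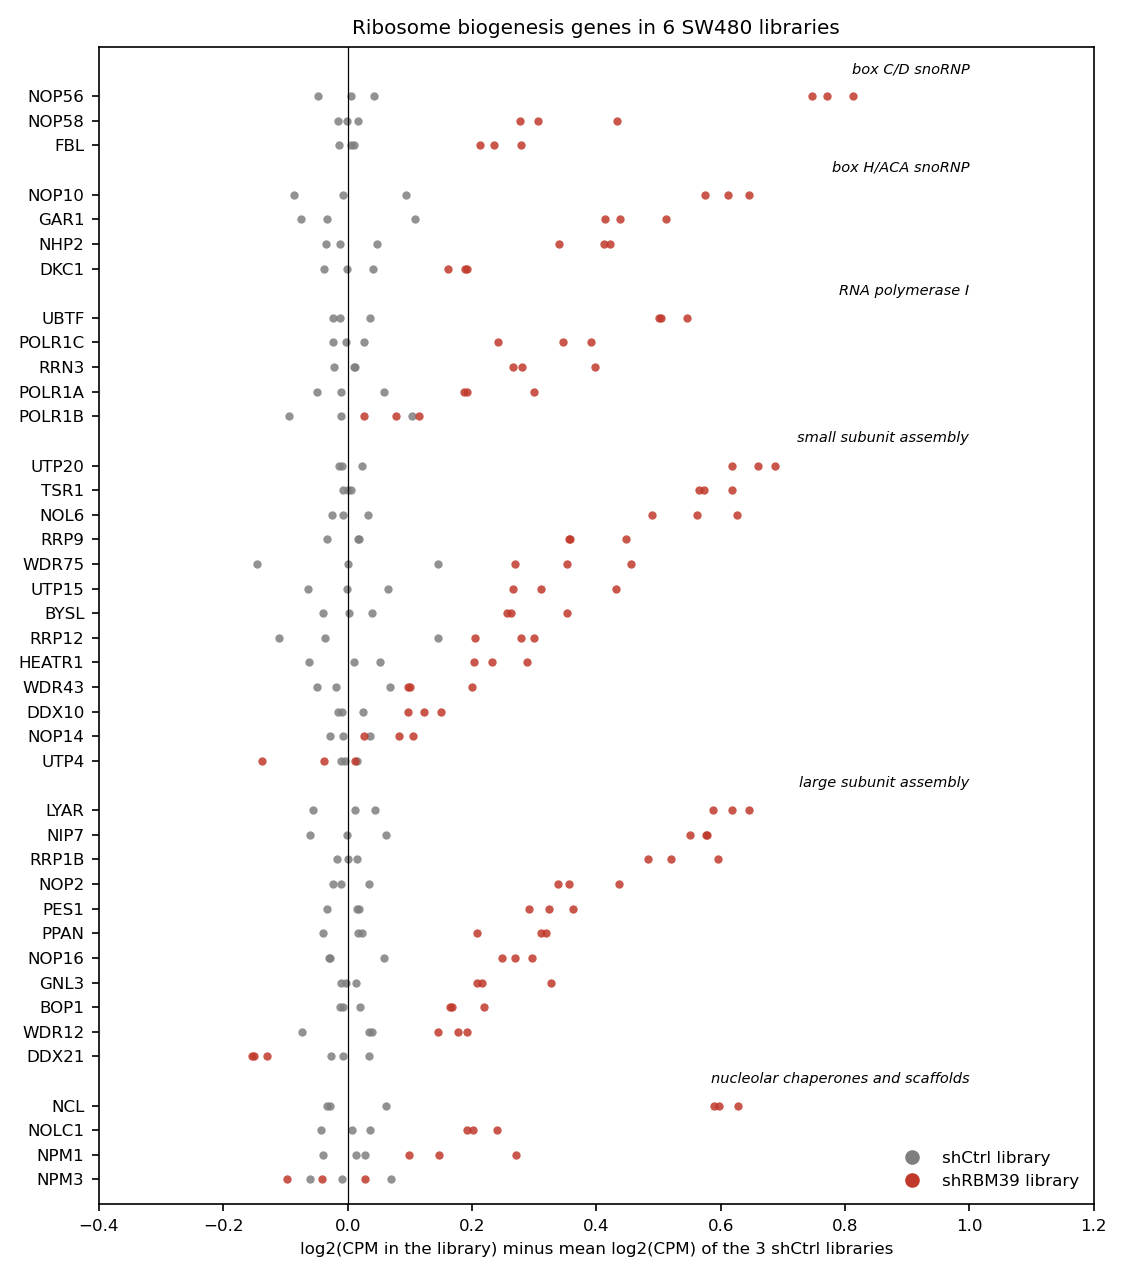
Log2 CPM of each of the 40 genes (rows, by role) in each library minus the gene's mean over the 3 shCtrl libraries (horizontal axis), 1 point per library, grey for shCtrl and red for shRBM39. Most red points lie to the right of the grey ones, with library medians of 0.28 to 0.31, while those of DDX21 lie to the left.

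Levels in the control cells, compared per kilobase of merged exon length, spanned a wide range, with the limit that merged exons can be longer than the transcript that is made. NCL led with 1078 CPM per kb and NPM1 followed with 610 CPM per kb, both abundant nucleolar proteins. NOLC1, DKC1, DDX21, NOP14 and FBL stood between 152 and 108 CPM per kb. At the low end were POLR1B with 4.75, UTP20 with 4.64 and UTP15 with 2.77 CPM per kb. The smallest count behind any value of the 40 genes was 279 reads in a library (GAR1), so none of them rested on few reads.

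The promoters were examined because MYC and related factors are known to bind the E-box letters CACGTG. RefSeq promoter sequences (GRCh38.p14, 250 bases before to 50 after the annotated start) were matched for 35 of the 40 genes, and not for NOP58, RRP1B, NOLC1, BOP1 and RRP12. The letters CACGTG, which read the same on both strands, were present in 11 of the 35 (31.4%), in 10.1% of the 10702 promoters of tested genes and in 7.43% of all 27305 promoters. The CCAAT box, searched as CCAAT on both strands, was present in 14 of the 35 and in 36.6% of the tested promoters. A core motif of NRF1, also searched on both strands, was present in 2 of the 35 (5.71%) and in 2.23% of the tested promoters. Overlaps between the 3 motifs were not removed. Of the 12 CACGTG matches in the 35 promoters, 11 began within 40 bases of the start. The sequences below show that the same letters sit near the start of genes at the top, middle and bottom of the range of change. Each is 30 bases, 5′ to 3′ on the gene's strand, with CACGTG in capitals.
UTP20, chr12:101280083-101280112, plus strand, log2 fold change 0.66: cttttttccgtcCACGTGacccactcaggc
NOP10, chr15:34343130-34343159, minus strand, log2 fold change 0.61: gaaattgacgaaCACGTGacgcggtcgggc
NOL6, chr9:33473894-33473923, minus strand, log2 fold change 0.56: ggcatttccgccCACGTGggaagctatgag
PES1, chr22:30591880-30591909, minus strand, log2 fold change 0.33: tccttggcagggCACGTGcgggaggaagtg
FBL, chr19:39846356-39846385, minus strand, log2 fold change 0.24: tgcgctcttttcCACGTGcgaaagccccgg
NOP14, chr4:2963374-2963403, minus strand, log2 fold change 0.07, not called: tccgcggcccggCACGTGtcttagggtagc
UTP4, chr16:69132621-69132650, plus strand, log2 fold change -0.05, not called: agagcgcgcgcgCACGTGgggccggggcgg
Of the 11 genes with a match, 9 rose, and their median log2 fold change was 0.33. Of the 24 without one, 21 rose and 1 fell, with a median of 0.30. Among all tested genes with CACGTG in the promoter, 36.0% rose, as did 33.2% of those with any matched promoter. A match describes the letters only and does not show that a factor was bound.

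RNA polymerase I genes. UBTF, the upstream binding factor that opens ribosomal DNA for transcription, changed most in this group. Its level was 203, 212 and 204 CPM in shCtrl and 301, 293 and 292 CPM in shRBM39, so the groups were well apart, with a log2 fold change of 0.52 (SE 0.04, edgeR adjusted p = 3.13e-14). RRN3, the initiation factor TIF-IA that brings the polymerase to the promoter, rose by 0.32 on the log2 scale. POLR1C, a subunit shared with RNA polymerase III, rose by 0.33, and the largest catalytic subunit POLR1A by 0.23. POLR1B, the second largest subunit, stood at 29.8, 32.2 and 28.1 CPM in shCtrl and at 30.5, 31.7 and 32.5 CPM in shRBM39. These values overlapped, and the log2 fold change of 0.07 (SE 0.06) did not pass (edgeR adjusted p = 0.306), with a negative sign under library totals. Reads of RRN3 are less certain than the others, since rows for its partial copies held 1527 counts, 27.3% of the counts of RRN3 itself, and a row on the opposite strand of POLR1C held 54.5% as many counts as POLR1C.

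Box C/D snoRNP genes. These proteins belong to the particle that methylates ribosomal RNA, and all 3 rose. SNU13, another protein of this particle, is not among the 40 but among the other assembly genes described below. It was not called (log2 fold change 0.05, SE 0.04, edgeR adjusted p = 0.310). NOP56 (chr20:2652145-2658393, GRCh38), a core scaffold of the particle, had the highest log2 fold change of the 40 genes. It stood at 435, 425 and 409 CPM in shCtrl and at 743, 710 and 722 CPM in shRBM39. The lowest shRBM39 library was far above the highest shCtrl library, and the means of 423 ± 13.1 and 725 ± 16.7 CPM (SD, n = 3) gave a log2 fold change of 0.78 (SE 0.04, edgeR adjusted p = 8.68e-19). FBL, the methyltransferase fibrillarin, moved least of the 3. It read 236, 232 and 236 CPM in shCtrl and 272, 285 and 276 CPM in shRBM39, again without overlap, for a log2 fold change of 0.24 (SE 0.04, edgeR adjusted p = 6.55e-07). NOP58, the partner of NOP56 in the particle, rose by 0.34. Rows for snoRNAs that lie within NOP56 held few counts beside it, with SNORD86 at 6.14% of the counts of NOP56. The merged exons of NOP56 reach into introns of its canonical transcript, where SNORD86 lies. Its counts may therefore include unspliced RNA, and the part of this in its change was not tested.

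Box H/ACA snoRNP genes. This particle turns uridine into pseudouridine, and all 4 of its core proteins rose. NOP10, its smallest subunit, read 36.7, 34.2 and 32.4 CPM in shCtrl and 51.2, 53.8 and 52.6 CPM in shRBM39. The groups did not overlap and the log2 fold change was 0.61 (SE 0.05, edgeR adjusted p = 2.06e-12). DKC1, the pseudouridine synthase dyskerin, read 635, 617 and 601 CPM in shCtrl and 691, 705 and 704 CPM in shRBM39. Its groups were closer but also apart, with a log2 fold change of 0.18 (SE 0.04, edgeR adjusted p = 6.62e-05), a call that library totals did not keep. GAR1 and NHP2, the other core proteins, rose by 0.45 and 0.39.

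Small subunit genes. Of the 13 genes, 11 rose and the median log2 fold change was 0.29. UTP20, a large scaffold protein of the small subunit processome, was highest. It read 46.2, 47.2 and 46.0 CPM in shCtrl and 74.8, 71.3 and 73.4 CPM in shRBM39, which left a wide gap between the groups and gave a log2 fold change of 0.66 (SE 0.04, edgeR adjusted p = 9.22e-15). TSR1, a GTPase-like factor of late small subunit maturation, rose by 0.59, and NOL6, a nucleolar processome component, by 0.56. RRP9, the U3 snoRNA-binding protein, rose by 0.39, WDR75 by 0.35 and UTP15 by 0.34, the last 2 being components of the early UTP-A complex. Increases of 0.29 for BYSL, 0.26 for RRP12, which acts in subunit export, and 0.24 for HEATR1 followed. Opposite-strand rows held 47.7% as many counts as UTP15 (ANKRA2) and 52.0% as many as HEATR1 (LGALS8).

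The smallest called increases in small subunit genes were 0.13 for WDR43, another UTP-A component, and 0.12 for the helicase DDX10. Neither remaining member passed the test. NOP14, a scaffold of the processome, read 487, 466 and 473 CPM in shCtrl and 511, 503 and 484 CPM in shRBM39. The lowest shRBM39 value lay within the shCtrl range, and the log2 fold change was 0.07 (SE 0.04, edgeR adjusted p = 0.0964), with a negative sign under library totals and an adjusted p under 0.05 in DESeq2. UTP4, also of the UTP-A complex, read 154, 156 and 153 CPM in shCtrl and 155, 150 and 140 CPM in shRBM39. These ranges overlapped, and its log2 fold change was -0.05 (SE 0.04, edgeR adjusted p = 0.251). Opposite-strand rows overlap both genes, with NOP14-AS1 at 28.1% of the counts of NOP14 and CHTF8 at 81.5% of those of UTP4.

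Large subunit genes. Of the 11 genes, 10 rose and DDX21 fell, and none overlapped between the groups. LYAR, a nucleolar zinc finger protein, was highest, with 222, 217 and 207 CPM in shCtrl and 324, 331 and 337 CPM in shRBM39. The means were 215 ± 7.55 and 330 ± 6.49 CPM (SD, n = 3), for a log2 fold change of 0.62 (SE 0.04, edgeR adjusted p = 5.49e-16). NIP7, a factor of pre-ribosomal RNA processing, rose by 0.57 and the nucleolar protein RRP1B by 0.53. NOP2, a ribosomal RNA cytosine methyltransferase, rose by 0.38, PPAN by 0.28, NOP16 by 0.27 and GNL3, the GTPase nucleostemin, by 0.25. PPAN shares its exons with a readthrough row, PPAN-P2RY11, which held 27363 counts beside 26153 for PPAN and had a log2 fold change of 0.24. Opposite-strand rows amounted to 65.1% of the counts of NIP7 (COG8) and 45.9% of those of NOP16 (ARL10).

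The PeBoW complex, which joins PES1, BOP1 and WDR12 in early large subunit maturation, rose in all 3 members with TMM scaling, by 0.33 for PES1, 0.18 for BOP1 and 0.17 for WDR12, of which PES1 alone kept its call under library totals and in the RPKM fits. DDX21, a nucleolar RNA helicase that acts in ribosomal RNA transcription and processing, was the only member of the 40 called lower with TMM scaling. It read 707, 738 and 717 CPM in shCtrl and 659, 648 and 649 CPM in shRBM39. Every shRBM39 library was below every shCtrl library, but the change was small, with a log2 fold change of -0.14 (SE 0.04, edgeR adjusted p = 0.000823).

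Nucleolar chaperones and scaffolds. NCL (nucleolin, chr2:231453531-231483641, GRCh38), an RNA-binding protein of the nucleolus, was the most abundant of the 40 per length and also among the most changed. It read 7786, 7296 and 7317 CPM in shCtrl and 11285, 11222 and 11530 CPM in shRBM39. The groups lay far apart, at 7467 ± 277 and 11346 ± 163 CPM (SD, n = 3), for a log2 fold change of 0.60 (SE 0.04, edgeR adjusted p = 4.22e-16). NOLC1, a scaffold that binds snoRNPs, rose by 0.21, and NPM1, the histone chaperone nucleophosmin, by 0.17, from 2336 ± 57.4 to 2635 ± 164 CPM. NPM3, a relative of NPM1, read 53.6, 50.8 and 49.0 CPM in shCtrl and 49.7, 52.1 and 47.8 CPM in shRBM39. Its groups overlapped, and the log2 fold change was -0.04 (SE 0.05, edgeR adjusted p = 0.515). Rows for 45 NPM1 pseudogenes held 1.94% as many counts as NPM1.

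Within a particle the changes were unequal in size. Ratios between 2 genes of a library do not depend on library scaling, and the pairs shown are the highest and lowest changing members of each group, so the ratios describe that choice and were not tested. NOP56 over FBL, in CPM per kb, was 0.747, 0.738 and 0.700 in shCtrl and 1.10, 1.01 and 1.06 in shRBM39. The level of this ratio is uncertain, because the merged exons of NOP56 cover 5398 bases, most of the gene, against 2182 for FBL. Its change between the groups has a limit too. Reads of unspliced NOP56 RNA may be counted, and whether they differed between the groups was not tested. NOP10 over DKC1 was 0.439, 0.421 and 0.409 in shCtrl and 0.562, 0.579 and 0.566 in shRBM39. In the UTP-A complex, WDR75 over UTP4 was 0.267, 0.323 and 0.297 in shCtrl and 0.353, 0.386 and 0.445 in shRBM39. All 3 ratios were higher in every shRBM39 library. The polymerase pair POLR1C over POLR1B moved less, from 1.89, 1.77 and 2.07 in shCtrl to 2.21, 2.37 and 2.24 in shRBM39.

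**Figure D3:**
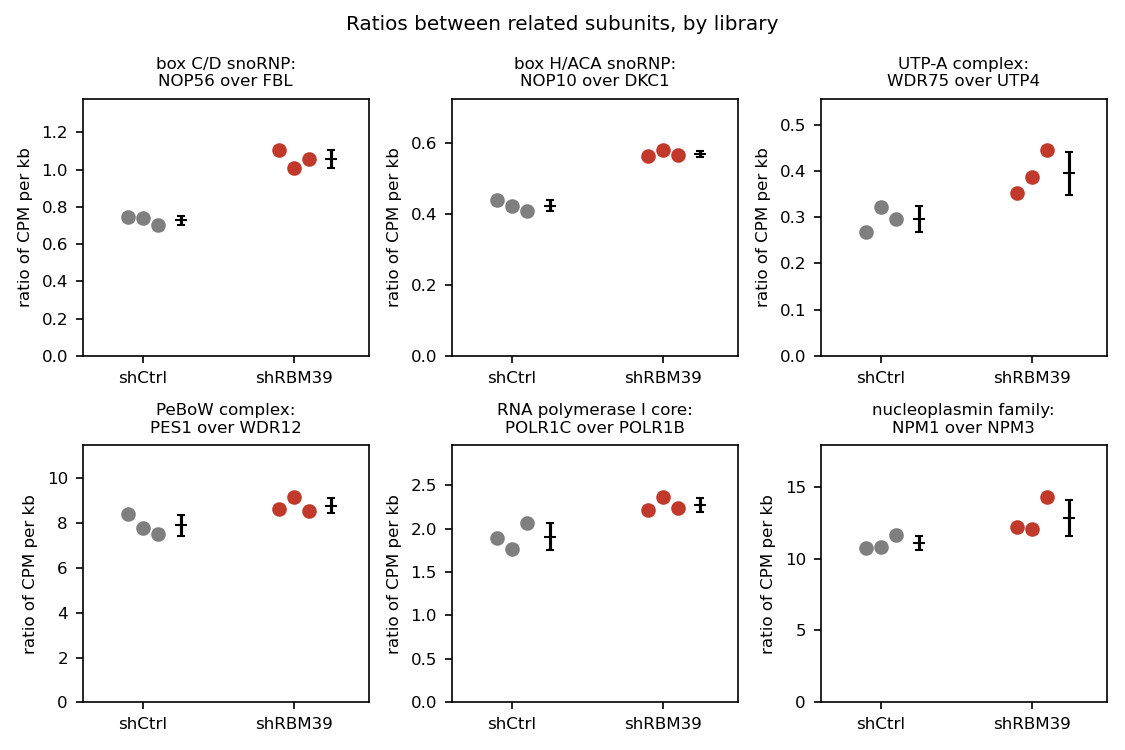
Ratio of CPM per kb between the highest and lowest changing related genes in each of the 6 libraries (points), with the mean and SD of 3 libraries per group beside them. NOP56 over FBL had a mean of 0.729 in shCtrl and 1.06 in shRBM39.

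Several of the 40 genes carry snoRNA genes in their introns, which are released when the host transcript is spliced. By the GENCODE v44 annotation, 8 of them (NOP56, NOP58, DKC1, WDR43, TSR1, GNL3, PPAN and NCL) hold 25 snoRNA genes, 21 of box C/D and 4 of box H/ACA, with 0 of the 25 in an exon of the canonical transcript. NOP56 holds 5 of them, among them SNORD86 and SNORA51. All 8 hosts rose with TMM scaling (6 under library totals, where DKC1 and WDR43 lost their call), with a median log2 fold change of 0.31, as did 27 of the 32 members without a snoRNA gene, with a median of 0.30. Among all 157 tested protein-coding genes with a snoRNA gene, 63 (40.1%) rose and 58 fell, with a median of 0.01. The snoRNAs themselves are not polyadenylated, and libraries of mRNA are not made to measure them.

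The remaining assembly machinery was read from a list of other genes of the pathway, also chosen with earlier results known, with 6 matched through older symbols. Of these, 78 rose, 12 fell and 25 did not pass, with a median log2 fold change of 0.23. So 67.8% were higher, against 29.2% of all tested genes and 40.2% of those averaging 10 CPM or more. The list includes the transcription factor MYC, without which 78 rose and 11 fell. Under library totals 54 rose and 21 fell, so 72.0% of those called were higher, against 33.9% of all called genes. By role, the called counts were 6 higher and 4 lower of 11 for RNA polymerase I and its regulation, where the list places MYC as one of the 4, 8 higher of 9 for snoRNP assembly, 27 higher and 2 lower of 37 for the small subunit, 27 higher and 6 lower of 46 for the large subunit, and 10 higher of 12 for the RNA exosome, which trims ribosomal RNA precursors.

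Within this wider list the strongest changes went in both directions. POLR1G, a polymerase I subunit listed under its older symbol CD3EAP, read 92.2, 89.0 and 86.6 CPM in shCtrl and 182, 166 and 171 CPM in shRBM39, a log2 fold change of 0.96 (edgeR adjusted p = 5.75e-20). POLR1E rose by 0.58, while the subunit POLR1H, listed as ZNRD1, had a log2 fold change of -0.68. MYC read 340, 363 and 329 CPM in shCtrl and 181, 176 and 172 CPM in shRBM39, so that it stood lower in every shRBM39 library, with a log2 fold change of -0.96 (SE 0.04, edgeR adjusted p = 1.46e-20). TCOF1, the nucleolar protein treacle, rose by 0.76 and SHQ1, an assembly factor of H/ACA particles, by 0.62. ZNHIT6 and RUVBL2, which act in box C/D assembly, rose by 0.17 and 0.13 with TMM scaling, and neither call was kept under library totals or in the RPKM fits.

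Among the other subunit assembly genes, NOL11 of the processome rose by 0.87 and FCF1 by 0.68, while the ribosomal RNA methyltransferase DIMT1 and the endonuclease NOB1, which makes the last cut of 18S ribosomal RNA, had log2 fold changes of -0.25 and -0.47. For the large subunit, EBNA1BP2 rose by 0.84 and the helicase DDX24 by 0.73, while RSL24D1 had a log2 fold change of -0.37. NOP53, listed as GLTSCR2, read 459, 452 and 461 CPM in shCtrl and 243, 255 and 250 CPM in shRBM39, a log2 fold change of -0.88 (edgeR adjusted p = 1.96e-20). The exosome genes EXOSC9 and EXOSC4 rose by 0.78 and 0.49. The smallest called changes among the exosome genes were 0.11 for the helicase MTREX (listed as SKIV2L2) and 0.10 for the nuclease EXOSC10. Both turned slightly negative under library totals and lost their call under upper-quartile scaling, and MTREX also lost its call in DESeq2.

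**Figure D4:**
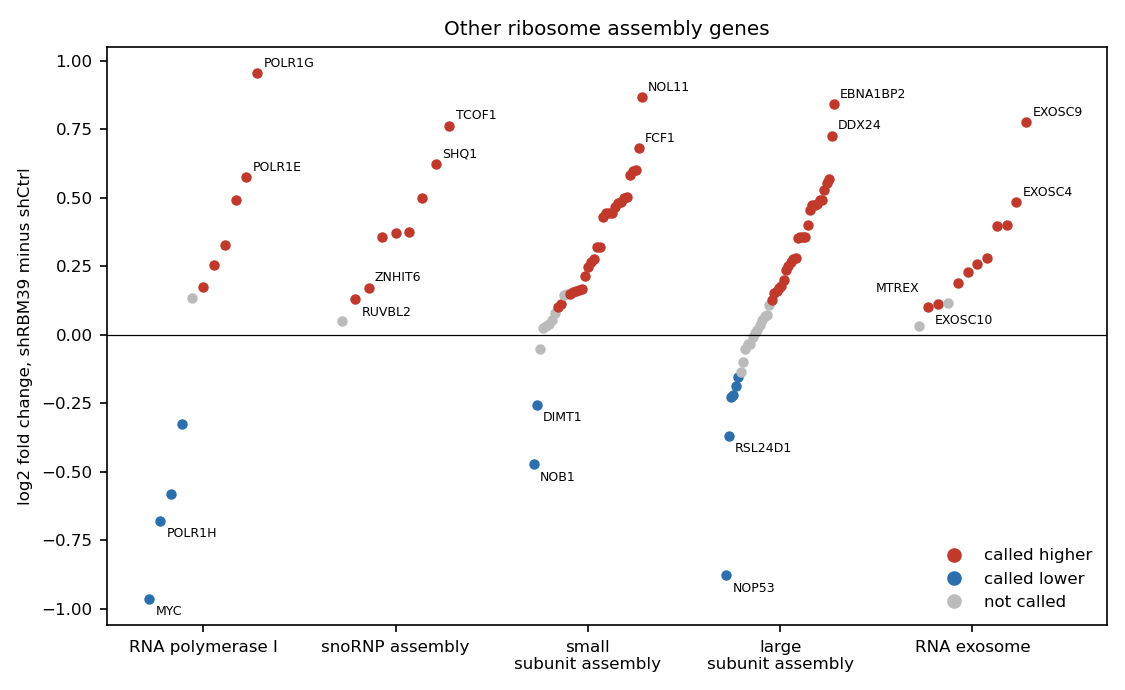
Log2 fold change (shRBM39 minus shCtrl) of the other ribosome assembly genes by role, coloured by call. POLR1G (0.96) and MYC (-0.96) mark the ends of the range.

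Ribosomal proteins, which these factors assemble with ribosomal RNA, were read for comparison. Of 80 cytosolic ribosomal protein genes, a list chosen after the data were seen, 16 rose, 39 fell and 25 did not pass, with a median log2 fold change of -0.09. Of all tested genes, 29.2% were called higher and 29.9% lower, with a median of -0.01. Of those averaging 10 CPM or more, 40.2% were called higher and 32.7% lower, with a median of 0.04. The difference of the ribosomal protein genes from this background was not tested.

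**Figure D5:**
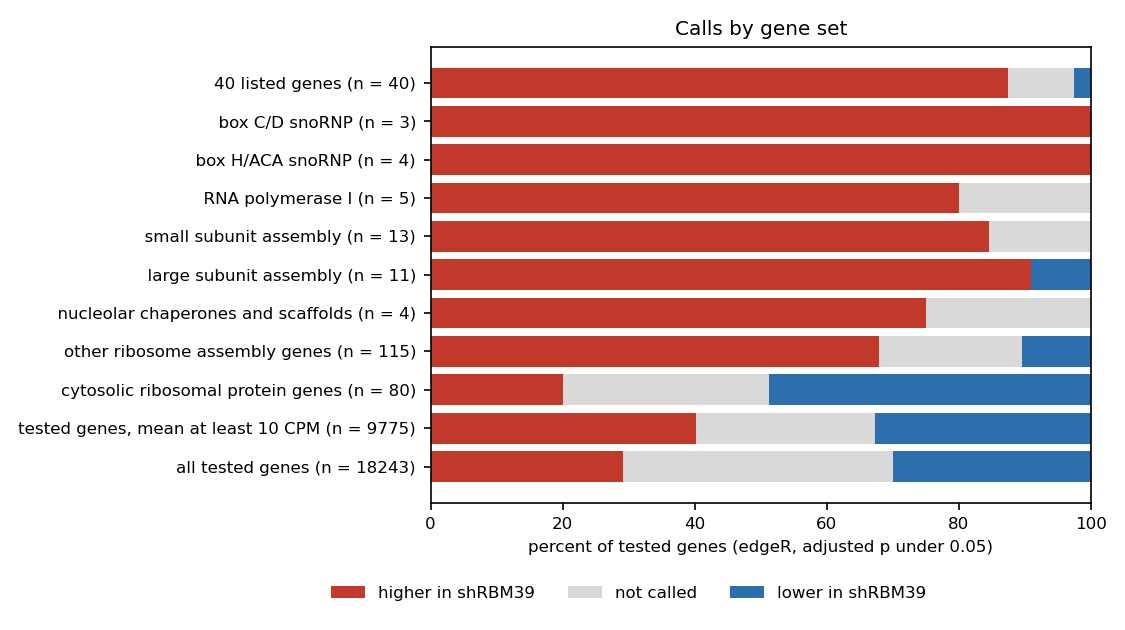
Percent of genes called higher, called lower or not called in shRBM39 for the 40 genes by role, the other assembly genes, 80 cytosolic ribosomal protein genes, tested genes averaging 10 CPM or more and all tested genes. The 40 genes were 87.5% higher and all tested genes 29.2%.

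The splicing table deposited with the counts lists 1582 records in 1198 genes, all selected for a difference between 2 groups that the table names only by number. Which number is the knockdown is not given in the sources used here, and the values are therefore given without direction or test. Of the 40 genes, 3 had a record, each for a skipped exon. In LYAR the record covered exon 2 of 10 (chr4:4286519-4286572, minus strand, GRCh38), 54 bases with 0 coding bases in the 5′ untranslated region. For group 1 the libraries gave inclusion of 0.791, 0.769 and 0.801, and for group 2 of 0.95, 0.95 and 0.9, without overlap, on 20, 18 and 19 skipping reads in group 1 and 3, 3 and 5 in group 2.

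In RRN3 the record covered exon 4 of 18 (chr16:15086365-15086454, minus strand), 90 coding bases, included at 0.912, 0.719 and 0.889 for group 1 and at 0.52, 0.727 and 0.663 for group 2. These levels overlapped and rested on 2 to 8 skipping reads per library. In NCL it covered exon 3 of 14 (chr2:231461540-231462017, minus strand), 478 coding bases, with 0, 2 and 4 skipping reads in group 1 and 0, 1 and 0 in group 2. The levels of NCL also overlapped, and so few reads could not show a difference.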

How the data were processed

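Stranded mRNA libraries with unique identifiers from SW480 cells were grouped by sample title into 3 shCtrl and 3 shRBM39. The authors deposited raw read counts per gene. The submitters' processing notes name Trimmomatic 0.36, STAR 2.5.3a, featureCounts of Subread 1.5.1, edgeR 3.12.1 and GRCh38, with no role or order. The annotation release, the strand setting and the collapsing of identifiers are not given in the sources used here, and these affect overlapping genes, paralogs and abundant genes such as NCL. Count columns headed NC were taken as shCtrl, since the labels give no other control. The authors also deposited RPKM values, which the counts reproduced within a relative difference of 1.2e-13, and an rMATS splicing table. Its deposited p-value and FDR columns hold the authors' own comparison and were not used. Only its reads and inclusion levels, a fraction deposited by the authors, were read.

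Genes were filtered with filterByExpr (minimum count 10), scaled by TMM and tested with edgeR 4.0.16 in R 4.3.3 (quasi-likelihood F test, group only, Benjamini-Hochberg over 18243 genes, adjusted p under 0.05). DESeq2 1.42.0, other scalings and filters, blocking on the replicate number, leaving out each library, limma-trend (limma 3.58.1) on log2(RPKM + 1) and log2(RPKM + 0.1), and testing against 0.5 on the log2 scale were alternatives. A GC and length correction was chosen after seeing the data. The method was tested on simulated data of this comparison (17957 genes): it recovered 90% of genes changed by 0.5 on the log2 scale, 99% of those changed by 1, and called 0.0225% of unchanged genes. The simulation changed only a small share of well-counted genes, equally up and down, with a common dispersion. It therefore could not test the scaling between the groups, or calls under a change as broad as that observed.

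The 40 genes, the roles and the wider list were chosen with earlier results of these data known. By rule, values of every library are given for the highest and lowest member of each role and for members not called. Of the wider list, the 2 highest and 2 lowest called genes per role with a mean of at least 5 CPM are named. Total counts ran from 18042924 to 20428901, and the common biological coefficient of variation was 0.0350. Replicates differed by more than sampling noise (chi-square per degree of freedom 2.41 to 5.09).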

Additional observations from a re-analysis of the deposited data

How the results depend on the processing

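Of the 40 genes, 26 were called higher in each of the 15 settings other than the test against 0.5. The count of all genes called was 10790, and 10138 to 10263 with 1 library left out, while the counts for the 40 were then 35 to 36 higher and 1 lower. Library totals gave 29 higher and 3 lower and the RPKM fits 26 and 3, with medians of 0.18 under totals, 0.16 for log2(RPKM + 1) and 0.18 for log2(RPKM + 0.1), and the median under upper-quartile scaling was 0.27. The wider list then had 21 genes lower under totals and 20 in each RPKM fit. These fits use no TMM factors. The test against 0.5 called 2232 genes, 6 of the 40 higher and 0 lower (0 lower also at an unadjusted p under 0.05, with no other tool run against 0.5), and 9 higher and 3 lower of the wider list. The shares called in either direction were 12.2% of all tested genes, 15.0% of the 40 and 10.4% of the wider list, and so near one another. The directions were less alike, since of all genes called in this test 1031 were higher (46.2%) and 1201 lower. DESeq2 called 8539 genes, and 36 higher and 1 lower of the 40.

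DDX10 turned to -0.00034 under totals, -0.00024 for log2(RPKM + 1) and -0.00026 for log2(RPKM + 0.1). In the same order, EXOSC10 turned to -0.023, -0.021 and -0.022 and MTREX (SKIV2L2) to -0.011, -0.013 and -0.014. The RPKM fits lost the calls of POLR1A, HEATR1 and RRP12 as well as the 5 lost under totals. The cause was not tested. EXOSC10 and MTREX lost their calls under upper-quartile scaling, MTREX also in DESeq2, and ZNHIT6 and RUVBL2 under totals and in the RPKM fits. EXOSC10 lost its call without replicate 1 or 2 of either group (0.093 to 0.10), and MTREX without shCtrl replicate 2 (0.10) or shRBM39 replicate 3 (0.062). NOP14 was called higher in DESeq2, without shCtrl replicate 1 and without shRBM39 replicate 3. Same-numbered libraries did not deviate together (correlations 0.02, -0.04 and 0.03), so no shared effect of the number was seen. These values cannot show whether such libraries were prepared together. The replicate block gave 10810 genes called and the same 35 and 1. The GC and length correction left 35 and 1. Few reads in the records limit the splicing values of NCL and RRN3. The NCL record held 29 to 44 inclusion reads per library, beside 148666 to 223327 counts for the gene. The reason was not tested.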
